A study of Saccharomyces cerevisiae BY4741 with 12 samples.

Results

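The *set2*-Y149F and *set2*-Y236F strains of *Saccharomyces cerevisiae*, which carry point mutants of the same histone methyltransferase, were compared directly with each other. The members were the 6 libraries of these strains, 3 each, of the 12 in the series, and everything the expression sheet holds for them was used: 6632 annotated rows and 777 antisense transcripts, or 7409 rows in all. All strains were of the BY4741 background. In both mutants the chromosomal gene was deleted (*set2*Δ) and the altered gene was supplied on pRS415, a plasmid selected by its *LEU2* marker. *set2*Δ with the empty plasmid and the WT are given as levels only, and no strain with an unaltered *SET2* on the plasmid was analysed here. The cells received no treatment, were grown at 30 °C from an OD600 of 0.2 and were collected at 0.8, and the methods name YPD or SD medium without saying which strain was in which. The sheet gives FPKM, fragments per kilobase scaled to the number mapped, as 1 mean of the authors per strain. Differences therefore have no replicate error and no test here, and neither the depth per library nor an SD can be given. A difference is log2(FPKM + 1) in *set2*-Y149F minus that in *set2*-Y236F, which understates differences of low rows, and a row is called higher in a strain when the difference reaches 2-fold or, where stated, 1.5-fold.

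Set2 is the yeast enzyme that methylates lysine 36 of histone H3 (H3K36). It travels with elongating RNA polymerase II, and the mark it leaves on transcribed genes is read by the Rpd3S deacetylase and by chromatin remodellers, which keep promoters inside genes and antisense promoters shut. H3K36 can carry 1, 2 or 3 methyl groups, and the tyrosines Tyr149 and Tyr236 lie in the catalytic SET domain. The study used *set2*-Y149F as a strain that keeps trimethylation and *set2*-Y236F as one that keeps the lower states. The comparison asks whether transcripts differ between cells that hold different H3K36 methylation states. The codons that were altered are shown here because they are the only intended difference between the strains. In the reference genome (R64, sacCer3), *SET2* is read from the minus strand of chromosome X, and the capitals mark the codon of each tyrosine before mutation.
Tyr149, chrX:103967-103999: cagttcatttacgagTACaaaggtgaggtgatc
Tyr236, chrX:103706-103738: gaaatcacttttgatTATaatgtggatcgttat

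The strains could be told apart from the WT and *set2*Δ, but not from each other, by *SET2* RNA. *SET2* was at 253 FPKM in *set2*-Y149F against 271 in *set2*-Y236F, beside 29.1 in the WT and 0.190 in *set2*Δ, so the point mutants held a like amount of an RNA that was well above the WT level in both. *LEU2* was at 1775 and 1890 FPKM in the point mutants, and at 3209 in the WT and 6023 in *set2*Δ, although BY4741 lacks this gene. The genes specific to the **a** mating type of BY4741 were expressed in both mutants, with *MFA1* at 1150 and 849 FPKM and *STE2* at 146 and 132. Of the α-specific genes, *MF(ALPHA)1*, *MF(ALPHA)2* and *STE3* were at 4.77 FPKM or less and *SAG1* was at 17.2 and 17.1.

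Between the mutants, the annotated rows were close to equal. Across the 6632 rows the median difference was -0.01, the 5th and 95th percentiles were -0.43 and 0.45, and the Pearson correlation of the levels was 0.992 across genes, which are not independent replicates. At 2-fold, 20 rows (0.302%) were higher in *set2*-Y149F and 21 (0.317%) in *set2*-Y236F. At 1.5-fold these numbers were 161 (2.43%) and 125 (1.88%). RefSeq lists 11 and 9 of the rows called at 2-fold. Of the 9 that were higher in *set2*-Y236F, 5 belong to the list of drug efflux genes, which holds pumps, lipid-handling proteins and regulators of pleiotropic drug resistance, and 4 (*YGR035C*, *CIS1*, *ICT1* and *GRE2*) do not. The 11 that were higher in *set2*-Y149F were of mixed kinds.

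**Figure D1:**
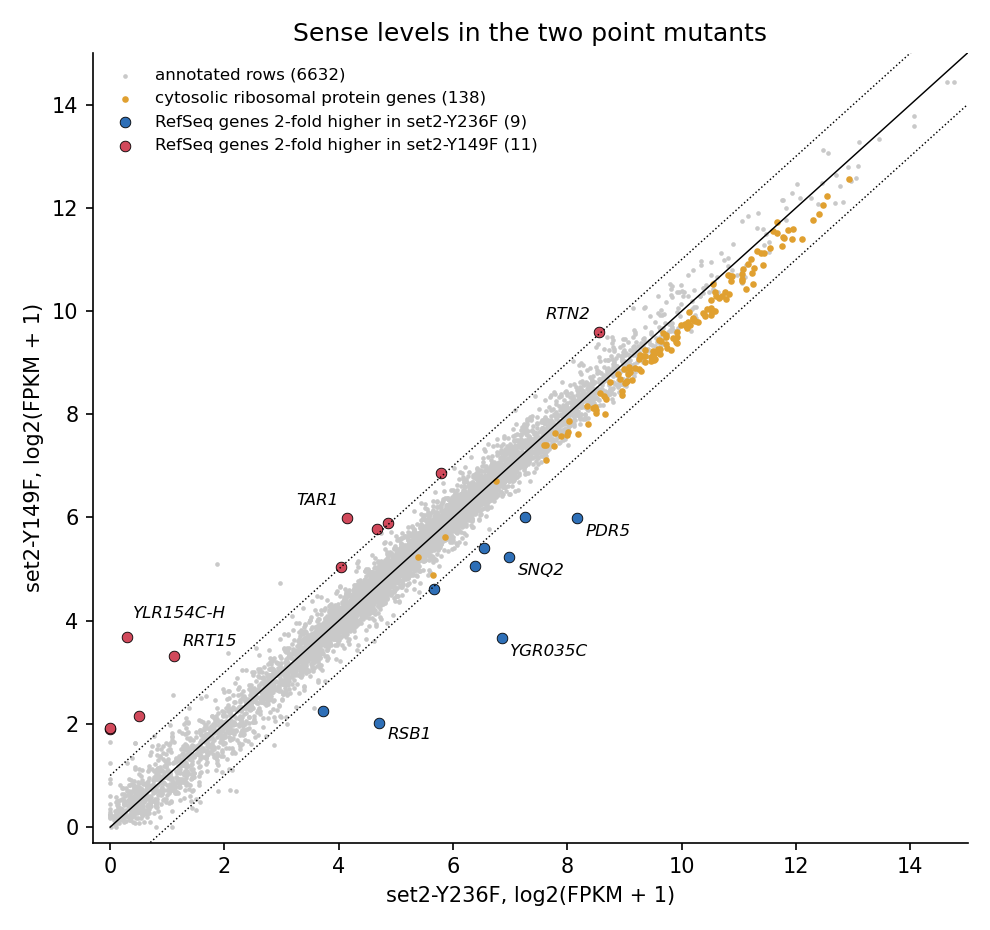
Each point is 1 annotated row, with log2(FPKM + 1) in *set2*-Y236F on the x axis and in *set2*-Y149F on the y axis, 1 authors' mean per strain. The solid line marks equal levels and the dotted lines a 2-fold difference. The 9 RefSeq genes in blue lie below the lower dotted line, the 11 in red above the upper one, and 137 of the 138 ribosomal protein genes in orange lie below the solid line.

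These 9 genes carried the largest differences of any protein-coding genes that RefSeq lists in the direction of *set2*-Y236F. In yeast, the zinc-cluster factors Pdr1 and Pdr3 activate drug efflux genes through the pleiotropic drug response element. The gene with the largest difference was *YGR035C*, whose function is not known. It was at 11.7 FPKM in *set2*-Y149F against 114 in *set2*-Y236F, 9.80 times as much, with 14.6 in the WT and 15.8 in *set2*Δ. Its level thus stood apart in *set2*-Y236F alone among the strain means. *RSB1*, a transporter of sphingoid long-chain bases, was at 3.02 and 24.95 FPKM, a difference of -2.69, with 2.51 in the WT and 9.24 in *set2*Δ. *PDR5*, the main ABC efflux pump of the plasma membrane, was at 62.3 and 285 FPKM, a difference of -2.18, with 89.2 in the WT and 61.4 in *set2*Δ. *SNQ2*, a second ABC pump, was at 36.7 and 125 FPKM, a difference of -1.75, with 45.4 in the WT and 40.7 in *set2*Δ. Both pumps were lower in *set2*-Y149F than in the WT, by 0.51 and 0.30 on the log2 scale, and higher than the WT in *set2*-Y236F, by 1.67 and 1.44.

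The other 5 genes of this group had smaller differences in the same direction. *CIS1* (*YLR346C*), a small gene named for citrinin sensitivity, was at 3.76 FPKM in *set2*-Y149F against 12.3 in *set2*-Y236F. *ICT1*, a lysophosphatidic acid acyltransferase, was at 32.5 and 82.0 FPKM, and *PDR16*, a phosphatidylinositol transfer protein, was at 63.7 and 151. These levels in *set2*-Y149F lay close to the WT, which was at 4.85, 37.2 and 73.1 FPKM for the same genes. *GRE2*, a methylglyoxal reductase, was at 41.5 and 92.1 FPKM, with 36.9 in the WT. *TPO1*, a polyamine exporter, was the exception in form, with 23.4 FPKM in *set2*-Y149F against 50.0 in *set2*-Y236F against 46.7 in the WT, so that here the strain away from the WT was *set2*-Y149F. In all 9 genes *set2*-Y236F had the highest mean of the 4 strains. *set2*-Y149F was within 2-fold of the WT in 9 of them and *set2*-Y236F in 1, which was *TPO1*.

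**Figure D2:**
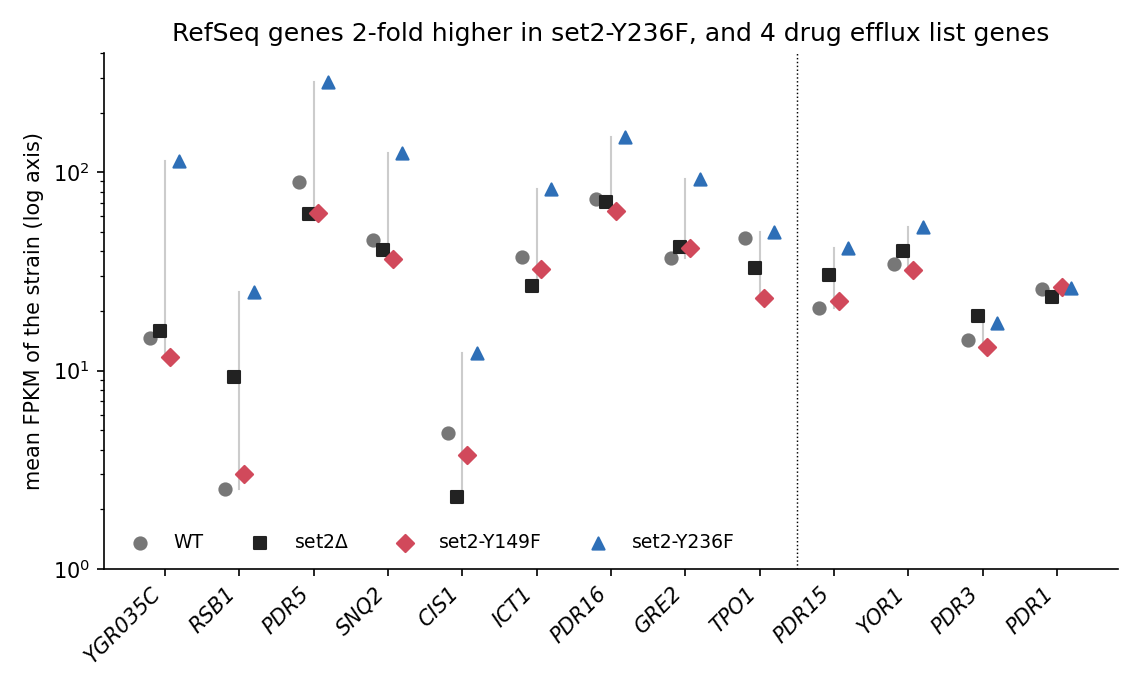
Mean FPKM (log axis) of the 9 RefSeq genes called higher in *set2*-Y236F at 2-fold and, right of the dotted line, of *PDR15*, *YOR1*, *PDR3* and *PDR1* from the drug efflux list, in the WT, *set2*Δ, *set2*-Y149F and *set2*-Y236F, 1 point per strain. The blue triangles of *set2*-Y236F are the highest of each of the 9 genes, while *PDR1* is at 26.3 FPKM in both mutants.

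Of the 22 genes of the drug efflux list, 5 were higher in *set2*-Y236F at 2-fold (0.317% of all rows) and 8 at 1.5-fold (1.88%), and none was called in the other direction. The differences of 19 were negative, with a median of -0.34 beside -0.01 over all rows. Set against the WT, the median of the list was -0.32 for *set2*-Y149F but 0.07 for *set2*-Y236F. *set2*-Y149F was the lowest strain for 14 of the 22, so that the list as a whole was below the WT in one mutant rather than raised in the other. The 3 genes called only at 1.5-fold were *PDR15*, an ABC transporter like *PDR5* (22.5 and 41.5 FPKM), *YOR1*, the oligomycin pump (32.2 and 52.7), and *AQR1*, a transporter of the major facilitator family (2.36 and 4.82). *PDR10*, a paralog of *PDR5*, was at 15.2 and 16.8 FPKM and was not called. Of the transcription factor genes themselves, *PDR1* was at 26.3 FPKM in both mutants, and *PDR3* at 13.1 and 17.4 was under 1.5-fold. The antisense transcript over *PDR1* was at 3.61 FPKM in *set2*-Y149F against 3.24 in *set2*-Y236F, beside 0.972 in the WT and 7.24 in *set2*Δ, so that it too was at like levels in the point mutants.

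The response elements upstream of these genes are shown because every one of the 9 holds at least 1. The 800 bases before each start codon in the R64 genome were searched on both strands for TCCGCGGA and TCCGTGGA, the usual spellings of the element, which differ in 1 base and so cannot match at the same place. The search was chosen after the genes had been seen, and the match is a description of letters, not of binding. TCCGCGGA was found upstream of 5 of the 9 and TCCGTGGA upstream of 6. Of 6016 promoters in the genome, 55 (0.914%) hold the former, 98 (1.63%) the latter and 145 (2.41%) either. Upstream of the 10 protein-coding genes that were 2-fold higher in *set2*-Y149F there was none. At a share of 2.41% this is the likely count for 10 promoters, so it sets up no contrast. *PDR5* had 4 matches and *SNQ2* had 3. One is printed for each of the 9, on the strand of the gene with the match in capitals, and TCCACGGA is the second spelling read on the other strand.
YGR035C, chrVII:557719-557750, minus: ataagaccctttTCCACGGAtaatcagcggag
RSB1, chrXV:424470-424501, minus: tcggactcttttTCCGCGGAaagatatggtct
PDR5, chrXV:619515-619546, plus: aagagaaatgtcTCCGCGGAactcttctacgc
SNQ2, chrIV:465323-465354, plus: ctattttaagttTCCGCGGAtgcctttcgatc
CIS1, chrXII:822898-822929, minus: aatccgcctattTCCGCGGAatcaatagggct
ICT1, chrXII:341095-341126, minus: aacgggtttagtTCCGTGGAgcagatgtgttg
PDR16, chrXIV:217445-217476, minus: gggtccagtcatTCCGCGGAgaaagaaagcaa
GRE2, chrXV:43531-43562, plus: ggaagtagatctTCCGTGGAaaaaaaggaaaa
TPO1, chrXII:84249-84280, plus: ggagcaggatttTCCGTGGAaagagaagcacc

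Most genes with a match were not called. Of the 143 that were measured, 9 were higher in *set2*-Y236F at 2-fold (0.317% of all rows) and 21 at 1.5-fold (1.88%). At 1.5-fold 3 were higher in *set2*-Y149F (2.43% of all rows), and the median difference of the 143 was -0.13. The 9 genes prompted the search, so the counts toward *set2*-Y236F rest in part on that choice. Over the 5744 measured genes without a match, 54 were higher in *set2*-Y236F at 1.5-fold and 112 in *set2*-Y149F, with a median of 0.00. Among the 9, the match nearest the start codon was that of *GRE2*, 151 bases before it, and the farthest that of *RSB1*, at 757 bases. Among the genes with a match that were called only at 1.5-fold were *IMA5*, an isomaltase (9.85 and 18.9 FPKM), *YPL088W*, a putative aryl-alcohol dehydrogenase (53.8 and 97.5), and *MIG2*, a glucose repressor (16.4 and 29.8). Their values lay in the direction of the 9. The 3 called in the other direction, a number near the share of all rows, were *GAL11* (33.7 and 19.1 FPKM), *PRB1* (190 and 117) and *ATG17* (22.8 and 14.6).

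The genes that were higher in *set2*-Y149F at 2-fold fell into a group from the ribosomal DNA and a set of single genes. *RTN2*, a reticulon protein of the endoplasmic reticulum that is raised by stress, was at 777 FPKM in *set2*-Y149F against 373 in *set2*-Y236F, beside 159 in the WT and 586 in *set2*Δ. Both mutants were above the WT for this gene, and *set2*-Y149F was the highest strain. *DDR48*, a stress-induced protein, was at 58.8 and 28.2 FPKM with 40.2 in the WT, and *AGA1*, the anchor of the **a**-agglutinin, was at 32.0 and 15.5 with 25.6 in the WT. *YMR206W*, whose function is not known, was at 53.9 and 24.4 FPKM with 38.8 in the WT. For these 3 genes the WT lay between the point mutants. *YOR302W*, the short reading frame in the leader of *CPA1* that encodes the arginine attenuator peptide, was at 116 FPKM in *set2*-Y149F, 2.15 times its level in *set2*-Y236F, a difference of 1.09. *CPA1* itself, the carbamoyl phosphate synthetase subunit that follows on the same transcript, was at 142 and 165 FPKM, a difference of -0.21 in the other direction. A reading frame of 78 bases is short against a fragment, so that its FPKM rests on few bases. The mitochondrial tRNA row tE(UUC)Q was at 2.73 FPKM and was listed at 0 in *set2*-Y236F.

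The rows of the ribosomal DNA region on chromosome XII were the other group. The 13 rows with suffixed names from YLR154 to YLR162 come from in and next to the rRNA repeats. They were taken by name alone, so not all need be small reading frames of the repeats. They included 8 that were higher in *set2*-Y149F at 2-fold (0.302% of all rows) and none that was higher in *set2*-Y236F. Their median difference was 1.64. Summed, the 13 rows were at 618 FPKM in *set2*-Y149F against 471 in *set2*-Y236F, with 475 in the WT and 545 in *set2*Δ. The sum thus differed far less than the median row, and the called rows hold only a part of it. *TAR1*, which lies antisense to the large rRNA and encodes a mitochondrial protein, was at 62.5 FPKM in *set2*-Y149F against 16.6 in *set2*-Y236F, with 42.2 in the WT and 30.9 in *set2*Δ. *YLR154C-H* was at 11.9 and 0.232 FPKM, with 1.74 in the WT, and *RRT15* was at 8.90 and 1.16, with 3.61 in the WT. *YLR154W-E*, a row that RefSeq does not list, was at 33.1 and 2.63 FPKM, with 3.85 in the WT. In each of these 4 rows *set2*-Y149F was the highest of the strains. *YLR154C-H*, *YLR156C-A* and *YLR159C-A* are near-identical copies, between which reads may be divided or shared, so that their values are uncertain and are not separate evidence. The RNA had been selected for poly(A) tails. The 5S rRNA rows, the one rRNA class counted here, summed to 124 FPKM in *set2*-Y149F against 110 in *set2*-Y236F. In the WT they summed to 255 and in *set2*Δ to 323, so both point mutants were well below these strains. The part of rRNA carried into the libraries was not tested.

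Cytosolic ribosomal protein genes had lower means in *set2*-Y149F nearly throughout, by a small amount. The differences of 137 of the 138 genes were negative, the median was -0.36, and 6 reached 1.5-fold, against 1.88% of all rows. Summed, the genes were at 149394 FPKM in *set2*-Y149F against 191731 in *set2*-Y236F, with 184312 in the WT and 161703 in *set2*Δ. The sum in *set2*-Y236F was thus the nearer to the WT, and *set2*-Y149F was the lowest strain for 67 of the 81 large-subunit and stalk genes and for 50 of the 57 small-subunit genes. *RPL30*, whose protein feeds back on its own splicing, was at 1466 and 2444 FPKM, and *RPS12* was at 2682 and 4397. *RPS28B*, which had the largest difference at -0.77, was at 28.4 and 49.4 FPKM with 115 in the WT, and *RPL41B* was the exception at 0.05. This group was added after its values had been seen, and near-identical pairs of these genes may share reads. The 67 mitochondrial ribosomal protein genes, counted in the same way, had a median of -0.02. Of the 50 ribosome biogenesis factors, which assemble rRNA and proteins in the nucleolus, 42 had a negative difference, with a median of -0.13 and none at 1.5-fold. *NOG2*, a GTPase of the large subunit, was at 15.6 and 22.9 FPKM, and *NOP56*, a core protein of box C/D particles, at 174 and 230.

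Coding length moved with the difference, and the ribosomal protein genes are short. Over 5889 protein-coding genes Spearman's rho between the difference and the coding length was 0.247, a description across genes that share the same pair of strain means. In 5 bins of like size by length, the median difference was -0.08 in the shortest, up to 603 bases, and 0.10 in the longest, from 2115 bases. Without the ribosomal protein genes the median of the shortest bin was -0.04, nearer to 0 than the -0.36 of those genes. Of 305 other protein-coding genes up to 786 bases long and with at least 190.5 FPKM, averaged over the point mutants, 171 had a negative difference. Their median was -0.04. The part of length in the list medians was not tested.

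**Figure D3:**
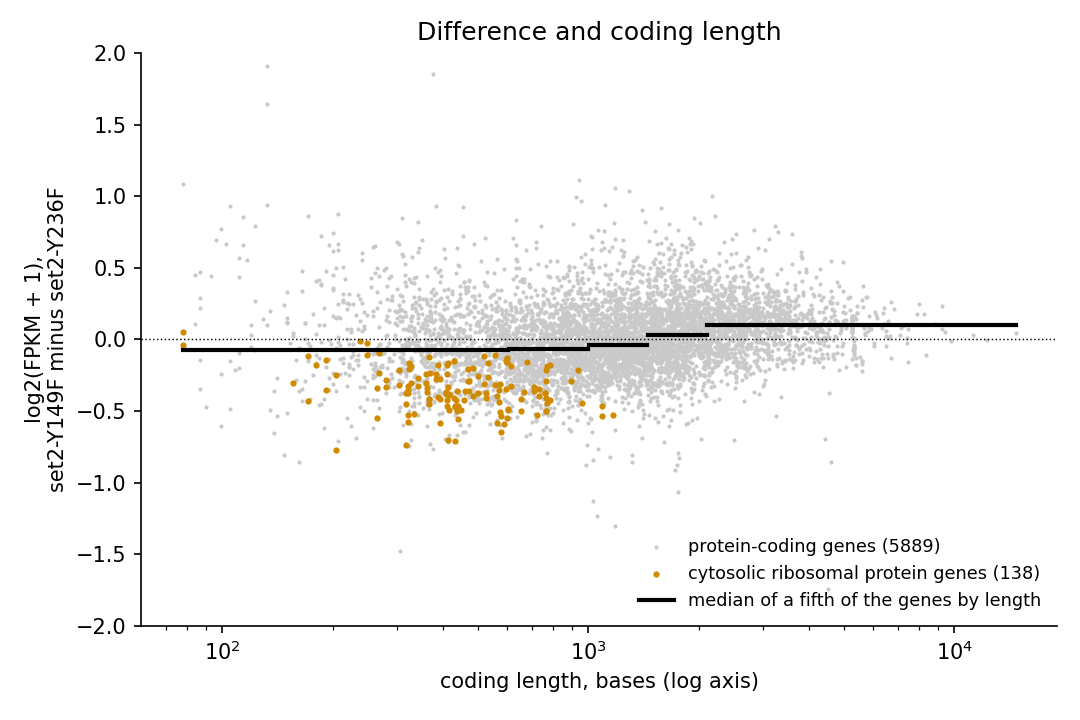
Difference in log2(FPKM + 1), *set2*-Y149F minus *set2*-Y236F, against coding length in bases (log axis) for 5889 protein-coding genes, with the 138 cytosolic ribosomal protein genes in orange. Black lines are the medians of 5 bins by length, from -0.08 to 0.10, and 5 genes lie beyond the vertical range.

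Lists of stress protection and energy reserves had positive medians. All 17 trehalose and glycogen genes had a positive difference, with a median of 0.36, of which 1 reached 1.5-fold (2.43% of all rows). It was *TSL1*, a subunit of trehalose phosphate synthase, at 492 FPKM in *set2*-Y149F against 292 in *set2*-Y236F, while *TPS2*, the phosphatase of the same complex, was at 439 and 299. In the WT *TSL1* was at 292 and *TPS2* at 241, and *TSL1* was at 501 in *set2*Δ. Over the list the median difference of *set2*-Y236F from the WT was 0.00, against 0.31 for *set2*-Y149F and 0.44 for *set2*Δ. The highest strain was *set2*Δ for 9 of the 17 genes and *set2*-Y149F for 6, so a level above the WT was not particular to *set2*-Y149F. Of 40 general stress genes, 2 were higher in *set2*-Y149F at 2-fold, which were *RTN2* and *DDR48*, 6 at 1.5-fold (2.43% of all rows) and none in the other direction. The differences were positive in 28 and negative in 12, with a median of 0.22. *DDR2*, a small protein of unknown mechanism that responds to many stresses, was at 1472 and 893 FPKM with 426 in the WT, and *USV1*, a zinc-finger factor, was at 172 and 97.3 with 92.0 in the WT. Both mutants exceeded the WT over this list, by a median of 1.45 in *set2*-Y149F against 1.18 in *set2*-Y236F, so that the strains differed less from each other than from the WT. The median of *set2*Δ against the WT was 1.04.

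The heat shock chaperones had a median of 0.22, with 18 positive and 8 negative differences, and 1 of the 26 was called at 1.5-fold (2.43% of all rows). This was *SSA4*, the stress-induced Hsp70, at 331 and 209 FPKM, whereas *HSP82*, an Hsp90, was at 792 and 886. Respiratory genes were likewise higher in *set2*-Y149F as a list. Of 36 genes of oxidative phosphorylation, 30 had a positive difference and 4 reached 1.5-fold (2.43% of all rows), with a median of 0.22. *CYC7*, the minor form of cytochrome c, was at 726 and 411 FPKM. *NDI1* and *NDE1*, the inner and outer NADH dehydrogenases that stand in for complex I in this yeast, were at 210 and 132 and at 346 and 218. *ATP19*, a small subunit of the ATP synthase, was at 336 and 218. Of the 19 genes of the TCA cycle, 15 had a positive difference, with *KGD1*, of the α-ketoglutarate dehydrogenase, at 141 and 91.2 FPKM the single one at 1.5-fold.

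**Figure D4:**
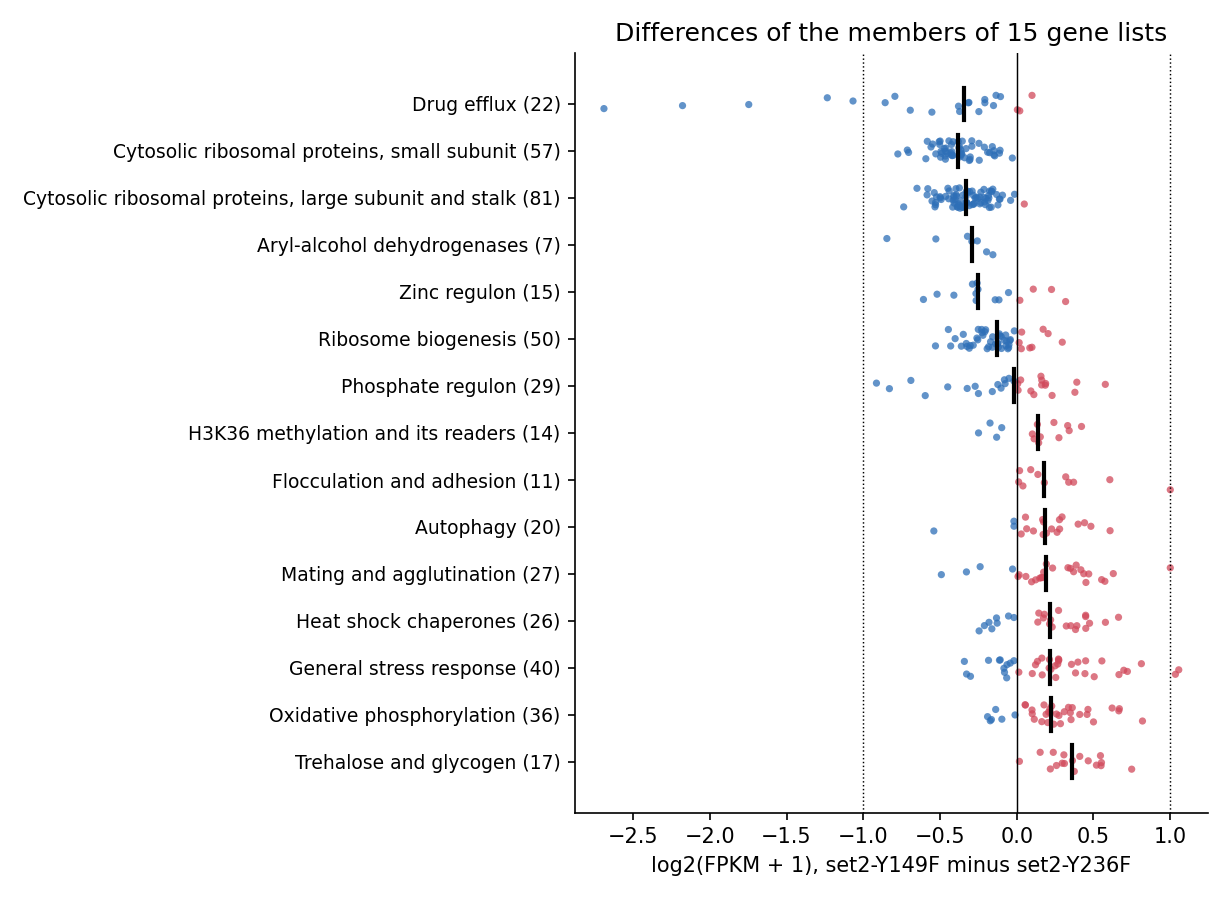
Each point is the difference of 1 gene in log2(FPKM + 1), *set2*-Y149F minus *set2*-Y236F, for 15 gene lists with the number of measured genes in parentheses, red above 0 and blue below. The black bar is the list median, from -0.38 for small-subunit ribosomal proteins to 0.36 for trehalose and glycogen, and the dotted lines mark 2-fold.

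Lists of cell surface and mating genes had positive medians too. Of 27 mating and agglutination genes 23 had a positive difference, with a median of 0.19. *AGA1* and *PRM3*, a nuclear fusion protein at 4.54 and 2.58 FPKM, were called at 1.5-fold (2.43% of all rows). *MFA2*, an **a**-factor gene, was at 1899 and 1294 FPKM. All 11 flocculation and adhesion genes had a positive difference, with a median of 0.18, but *FLO1* and *FLO11* were at 6.57 and 6.55 FPKM in *set2*-Y149F and at 4.99 and 5.05 in *set2*-Y236F. Among 18 genes of the PIR wall proteins and of daughter cell separation, 4 were higher in *set2*-Y149F at 1.5-fold (2.43% of all rows), 7 had a negative difference and the median was 0.12. The called genes were *HSP150*, at 3427 and 2114 FPKM, *PIR1*, at 617 and 398, *PIR3*, at 234 and 155, and *EGT2*, at 115 and 70.4. Autophagy genes were positive in 17 of 20, with *ATG17*, a scaffold of the initiation complex, called at 22.8 and 14.6 FPKM and *ATG5* in the other direction at 64.4 and 94.0, under 1.5-fold.

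Genes that handle glucose gave differences in both directions. *HXT2*, *HXT6* and *HXT7*, high-affinity transporters, were the 3 of 24 hexose genes that were higher in *set2*-Y149F at 1.5-fold (2.43% of all rows). *HXT2* was at 1073 and 657 FPKM, *HXT6* at 1782 and 1178 and *HXT7* at 1999 and 1296. *HXT6* and *HXT7* are near-identical copies, which may share reads. *MIG2* was the single gene of the list called in the other direction. In glycolysis, *TPI1*, the triose phosphate isomerase, and *TDH1*, a glyceraldehyde phosphate dehydrogenase, were higher in *set2*-Y236F, at 4455 against 7198 FPKM and at 4397 against 6608, and *GPM1* was at 12314 and 17190, under 1.5-fold. These were 2 of 25 genes called at 1.5-fold (1.88% of all rows), with a list median of -0.06.

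Among the nutrient lists the phosphate regulon held called genes on the side of *set2*-Y236F, 4 of 29 at 1.5-fold (1.88% of all rows), but its median was -0.02. *PHO89* and *PHO84*, high-affinity phosphate transporters, were at 4.05 against 8.52 FPKM and at 3.16 against 6.39. In the WT they were at 2.80 and 0.790, so both mutants were above it at these low levels. *PHO5*, the secreted acid phosphatase, was at 25.6 and 41.9, and *SPL2*, which acts on low-affinity uptake, at 11.9 and 18.4. Of the regulators, *PHO4* was at 12.8 in both mutants and *PHO81* at 14.4 and 12.8. The zinc list had a median of -0.25, with *FET4*, a low-affinity metal transporter, called at 30.4 and 46.9 FPKM and *ZRT1*, the high-affinity zinc transporter, at 72.9 and 97.2 not called. All 7 measured aryl-alcohol dehydrogenases had a negative difference, with a median of -0.29, and *YPL088W*, one of the genes with a response element, was the one called. Elsewhere single genes stood out from lists that were otherwise near 0. *HMX1*, the heme oxygenase of the iron list, was at 51.0 and 25.6 FPKM, *ROX1*, the repressor of hypoxic genes, at 123 and 64.0, *SRX1*, the sulfiredoxin, at 10.1 and 4.86, and *PUT1*, the proline oxidase, at 89.3 and 50.1, all higher in *set2*-Y149F at 1.5-fold.

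No gene around H3K36 methylation itself was called at 1.5-fold, where 2.43% of all rows were higher in *set2*-Y149F and 1.88% in *set2*-Y236F. At these shares few or no calls would be looked for in lists of this size. Among the 14 genes of Set2, the Rpd3S deacetylase, the Isw1b and Chd1 remodellers and the H3K36 demethylases, the differences ranged from -0.25 for *EAF3*, the chromodomain subunit of Rpd3S (164 and 195 FPKM), to 0.42 for *RCO1*, its PHD-finger subunit (32.1 and 23.7). Of the 14 differences 10 were positive and 4 negative, with a median of 0.14 beside -0.01 over all rows. None of the 25 elongation factors and histone chaperones, the 11 histone genes or the 22 genes of noncoding RNA decay was called at 1.5-fold.

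For antisense transcripts the mutants were alike in level. The 777 transcripts, which the authors assembled from the antisense reads and listed as raised in *set2*Δ, had a median of 1.64 FPKM in *set2*-Y149F against 1.62 in *set2*-Y236F, beside 0.464 in the WT and 3.98 in *set2*Δ. The median difference was -0.01 and the Pearson correlation of the levels was 0.969 across transcripts. None was called at 2-fold (0% in each direction), a count that the added 1 FPKM sets in part at these low levels: by the plain ratio of FPKM 22 were 2-fold higher in *set2*-Y149F and 11 in *set2*-Y236F, of which 16 had 1 FPKM or more in at least 1 of the strains. On the log2(FPKM + 1) scale, at 1.5-fold 17 (2.19%) were higher in *set2*-Y149F and 8 (1.03%) in *set2*-Y236F. Of the 777, 675 lay between the WT and *set2*Δ in both mutants. Set against the rise from the WT to *set2*Δ, a transcript reached 29.8% of it in *set2*-Y149F at the median, against 30.0% in *set2*-Y236F, and these shares hold the same WT and *set2*Δ means. The transcripts come from a list chosen on these libraries, so their place between the WT and *set2*Δ is a description. Without a value per library, equality of the strains cannot be shown, and differences within the replicate spread cannot be told from those beyond it.

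**Figure D5:**
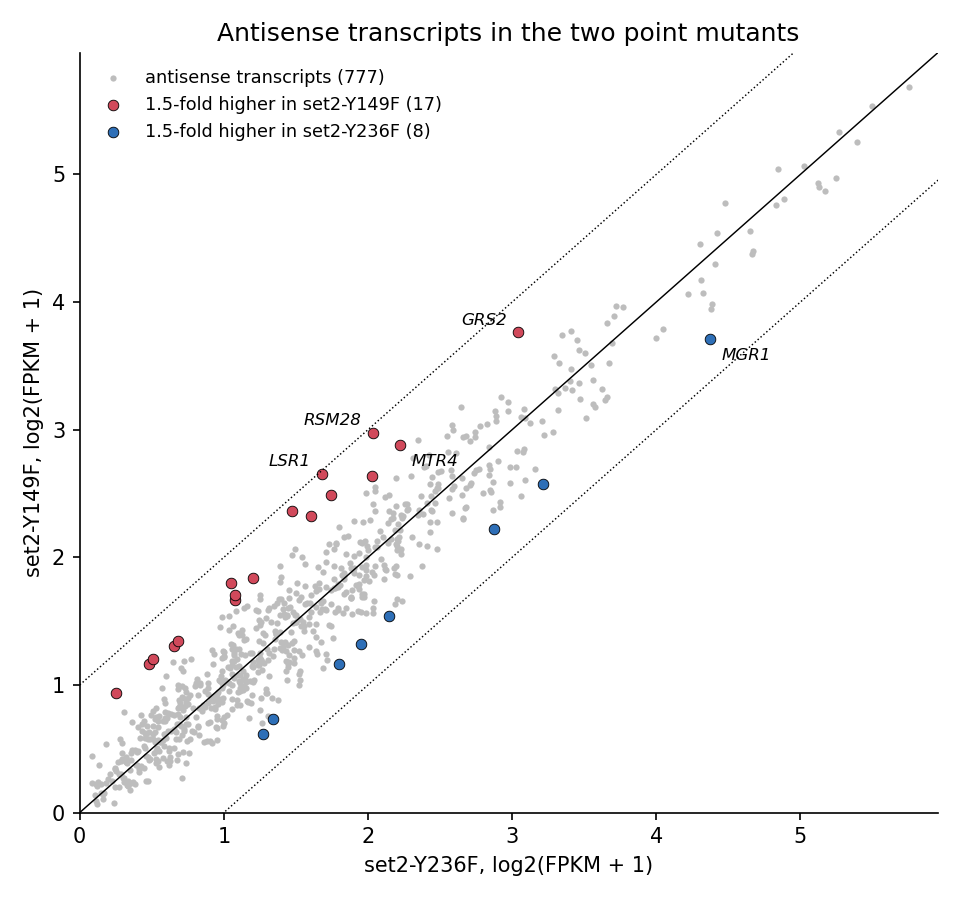
Each point is 1 of 777 antisense transcripts, with log2(FPKM + 1) in *set2*-Y236F on the x axis and in *set2*-Y149F on the y axis, and the names are those of the genes on the opposite strand. The solid line marks equal levels and the dotted lines 2-fold. The 17 transcripts in red and the 8 in blue are beyond 1.5-fold and none is beyond 2-fold on this scale, while by the plain ratio 22 and 11 are.

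The antisense transcripts with the largest difference toward *set2*-Y149F were led by the one over *LSR1*, the U2 small nuclear RNA of the spliceosome. It lies at chrII:681245-681992 on the plus strand and was at 5.29 FPKM in *set2*-Y149F against 2.202 in *set2*-Y236F, a difference of 0.97, with 0.547 in the WT and 2.97 in *set2*Δ. It was thus above *set2*Δ in one mutant and below it in the other. The transcript over *RSM28*, a mitochondrial ribosomal protein gene, was at 6.86 and 3.09 FPKM with 3.24 in the WT and 11.4 in *set2*Δ, so that *set2*-Y236F was at the WT level. Over *UTR1*, an NAD kinase gene, it was at 4.14 and 1.78 with 1.48 in the WT and 5.76 in *set2*Δ, a like pattern. The transcripts over *STB2*, *ZRG8*, *GRS2*, *BSC5*, *RAD54*, *VMR1* and *YPR137C-B* followed, with differences from 0.75 to 0.68. Of these, that over *GRS2*, a glycyl-tRNA synthetase gene, was the most abundant at 12.6 and 7.23 FPKM, and that over *VMR1* was at 0.911 and 0.191, where the plain ratio is large but the level low.

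Further antisense transcripts of the 17 were chosen for mention after their values were seen. The transcript over *MTR4*, the helicase of nuclear RNA surveillance, lies at chrX:342412-344998 on the minus strand and was at 6.35 FPKM in *set2*-Y149F against 3.68 in *set2*-Y236F. It was at 56.8 in *set2*Δ and 0.809 in the WT, so that both mutants were far below *set2*Δ. Over *CHD1*, one of the remodellers that act with H3K36 methylation, it was at 1.47 and 0.571 FPKM, and sense *CHD1* was at 30.4 and 27.5. Over *DNA2*, a helicase-nuclease of replication, the transcript that starts at 425788 on chromosome VIII was at 5.21 and 3.07. Of the 14 transcripts over the listed replication and repair genes, 2 were higher in *set2*-Y149F at 1.5-fold, those of *DNA2* and *RAD54*, against 2.19% of all antisense transcripts, and the median was 0.22 beside -0.01. The *RAD54* transcript starts beyond the end of the gene, covers 3.49% of it and was at 1.31 and 0.425 FPKM, a low level.

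In the direction of *set2*-Y236F the largest difference was that over *MGR1*, which encodes a subunit of the mitochondrial i-AAA protease supercomplex. It lies at chrIII:47225-48605 on the plus strand, covers 90.9% of the gene and was at 12.1 FPKM in *set2*-Y149F against 19.7 in *set2*-Y236F, with 5.35 in the WT and 17.4 in *set2*Δ. Here *set2*-Y236F was the highest strain. The transcript over *MAF1*, the repressor of RNA polymerase III, was at 3.66 and 6.33 FPKM with 8.66 in *set2*Δ, and that over *HOS2*, a histone deacetylase gene of the Set3 complex, at 1.24 and 2.49 with 3.41 in *set2*Δ. Those over *TRM2*, *BUD16*, *RGC1*, *HOL1*, *MET1*, *GAS3* and *NOC4* completed the 10 largest, with differences from -0.66 to -0.58.

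The sense genes opposite these transcripts were not called at 1.5-fold. All 25 genes whose antisense transcript was called at 1.5-fold had a sense difference under 1.5-fold, from -0.46 to 0.32. Since 2.43% and 1.88% of all annotated rows were called, few or none would be looked for among 25 genes. Sense *MGR1* was at 38.7 FPKM in *set2*-Y149F against 30.9 in *set2*-Y236F, and sense *BUD16* had the lowest of these differences. The former was opposite in direction to the antisense difference over its gene (-0.67), and the latter was in the same direction (-0.64). Over 687 genes with at least 1 antisense transcript, the Pearson correlation of the sense and antisense differences was 0.060 and Spearman's rho was 0.062, given as a description across genes that share the same libraries. Of these 687 genes, 8 were higher in *set2*-Y149F at 1.5-fold and 1 in *set2*-Y236F in the sense direction, where 2.43% and 1.88% of all annotated rows were.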

How the data were processed

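Strand-specific RNA-seq of poly(A) RNA had been made from 3 libraries per strain. Per the labels and methods, the authors' processing used TopHat2 2.1.1 after Trimmomatic 0.38, Cufflinks 2.2.1 with Cuffdiff, HTSeq 0.13.5, bedtools 2.29.2 and SAMtools 1.10, on sacCer3. The deposited sheet used here gives FPKM, 1 mean per strain. The number of libraries behind each mean could not be settled: doubled, 68.2% to 69.6% of the values ended within 15 significant digits, and tripled, 28.9% to 30.1%, whereas simulated means of 3 values did so more often when tripled. The deposited log2 CPM of the antisense list served only to check the order of names. Its correlation with log2(mean FPKM × width) was -0.00184 with names as printed and 0.904 in alphabetical order, which was used. The authors' fold changes and p-values, against the WT, were not used.

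Differences were computed in Python 3.11.15 (numpy 2.4.6, pandas 2.3.3) on log2(FPKM + 1), with no filter on low values, and called at 2-fold or 1.5-fold. No test was run, since the sheet used holds means and not values per library. Of the annotated rows 5926 matched RefSeq (R64) and 706 did not, and of 774 antisense transcripts whose gene matched, 773 overlapped it on the opposite strand. *URA3* and *MET17* were not analysed here. The calls were tested on simulated data. Named genes were *SET2* and the markers, up to 12 RefSeq genes per direction at 2-fold, the 10 largest antisense differences per direction and up to 4 genes per list. Any further gene was picked once the values were known, as the text says. The members and the 51 lists were chosen with earlier results of these data known, and 5 lists were added after the values had been seen. Other pseudocounts, scalings and filters were tried.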

Additional observations from a re-analysis of the deposited data

How the results depend on the processing

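A pseudocount, threshold or filter cannot turn the sign of a difference between strain means, so directions were not tested by these alternatives. At a pseudocount of 0.1 the rows at 2-fold numbered 83 and 75, higher in *set2*-Y149F first and *set2*-Y236F second, and at 10 they numbered 5 and 6. At 1.5-fold they numbered 161 and 125. With only rows whose mean over the strains was at least 5 FPKM they were 9 and 12, and with only RefSeq rows 11 and 9. The 9 RefSeq genes higher in *set2*-Y236F had been chosen at 2-fold, so a smaller pseudocount, a lower threshold or the RefSeq filter could not drop any. The filter at 5 FPKM kept all 9, and a pseudocount of 10 called 6. For antisense transcripts a pseudocount of 0.1 gave 14 and 4 at 2-fold, the threshold of 1.5-fold 17 and 8, and plain ratios over the 552 transcripts at 1 FPKM or more in a point mutant, chosen after seeing the data, 11 and 5. The median of the drug efflux list was -0.21 at a pseudocount of 10, and 8 of its genes were called at 1.5-fold. The mating list had a median of 0.33 over genes of at least 5 FPKM, and the adhesion list one of 0.0797 at a pseudocount of 10. Scaling the strains to a common median multiplied *set2*-Y236F by 1.008, gave 19 and 21 rows at 2-fold and a median over all rows of -0.02, and brought 9 ribosomal protein genes to 1.5-fold, against 6. No paired analysis was possible because the sheet holds 1 mean per strain, and leaving out each library was not run for the same reason. The unknown depth limits the low rows most: 225 antisense transcripts were under 1 FPKM in both point mutants.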

Other observations

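Noncoding rows are part of the 6632 annotated rows and of their counts, at low levels. Of 64 tRNA rows, 7 were higher in *set2*-Y149F at 2-fold (0.302% of all rows) and 5 in *set2*-Y236F (0.317% of all rows). At 1.5-fold these numbers were 25 (2.43% of all rows) and 9 (1.88% of all rows). The median difference of the tRNA rows was 0.37, with 41 positive, and their levels at the median were 1.86 and 1.49 FPKM. The called rows tM(CAU)J2 and tR(ACG)J had the same means in the point mutants, 2.11 and 0.351 FPKM. Calls at such levels may rest on few reads and may not be separate evidence. Of 77 small nucleolar and nuclear RNA rows named snR, 4 were higher in *set2*-Y236F at 2-fold (0.317% of all rows) and none in *set2*-Y149F. The median difference of the snR rows was -0.25. Among them snR24 was at 3.93 FPKM in *set2*-Y149F against 10.8 in *set2*-Y236F, with 10.6 in the WT and 4.10 in *set2*Δ. The row snR75 was at 11.2 and 23.7, with 14.2 in the WT and 12.6 in *set2*Δ. These are short RNAs without poly(A) tails in libraries selected for them.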
